A study of Mus musculus with 23 samples.

Results

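Nrf2 is the transcription factor that switches on antioxidant and detoxifying genes, and 8 genes of its pathway were followed here through hippocampal microglia of an amyloid model. They were chosen by name from the count table: *Nfe2l2* (which encodes Nrf2), *Keap1*, *Bach1*, *Mafg*, *Nqo1*, *Txnrd1*, *Srxn1* and *Sqstm1*. All 8 were among the 18876 genes in the table, and all 8 passed the filter on low counts that left 18759 genes to test. Their expression was measured by bulk RNA-seq of cells that carry the myeloid surface marker CD11b, found on microglia, taken from both hippocampi of female mice.

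The design crossed an amyloid transgene with an induced knockdown of the gene for the iron importer DMT1, and asked how microglial gene expression responds to each. All mice carried floxed *Slc11a2* (Slc11a2 fl/fl, the gene for DMT1) and 1 copy of Cx3cr1-Cre-ERT2, on a mixed 129S;C57BL/6J background. *APP/PS1* mice were hemizygous for the transgene, and WT littermates lacked it. Groups labelled *Slc11a2*-KD were gavaged with tamoxifen (4 mg daily, 5 days) when 5 to 6 months old, whereas Control mice received 200 µL of corn oil. Tissue was collected at 15 to 18 months. The Control mice gave 6 WT and 7 *APP/PS1* samples and the *Slc11a2*-KD mice 5 of each genotype, with 1 library each. Knockdown and tamoxifen always went together, so their effects cannot be told apart, and the Cre driver is also active in macrophages outside the microglia. Library totals ran from 31128643 to 54872491 counts.

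In resting cells Keap1 holds Nrf2 in the cytoplasm and hands it to an E3 ligase for destruction. Oxidants and electrophiles modify Keap1, Nrf2 then accumulates, enters the nucleus, pairs with a small Maf protein such as MafG and binds antioxidant response elements beside its targets. Bach1 binds the same elements with the same Maf partners, represses the targets, and is released by heme. The p62 protein made from *Sqstm1* is a selective autophagy receptor that can capture Keap1, so *Sqstm1* is both a target and a regulator of Nrf2. Microglia meet iron, heme and phagocytosed debris, which makes this pathway of interest in amyloid disease.

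Several libraries stood apart before any comparison of these genes. On the first principal component over all genes, Control *APP/PS1* 0010 was 2.13 SD away from the mean of its group. The study left it out, and it was left out of the means, ranges and main fits here. All Control libraries are numbered 5 to 17 and all *Slc11a2*-KD libraries 1 to 4 or 18 to 23. Effects of knockdown and of the runs of numbers therefore cannot be told apart. Where a fit has a term for libraries 18 to 23, it sets knockdown values at the level of libraries 1 to 4. Among these, 0004 is the only *APP/PS1* library. Libraries numbered 18 to 23 hold 6 of the 10 *Slc11a2*-KD samples and no Control sample. In those 6 libraries the summed level of 12 choroid plexus epithelium markers was 89.4 to 810 CPM (counts scaled to the size of the library), against 2.27 to 52.0 in libraries 1 to 4. Control WT 0012 and 0015 reached 1997 and 1024 CPM on the same sum. The sum of 9 microglial markers separated by genotype, at 42529 to 48742 CPM in Control WT and 32769 to 37396 in Control *APP/PS1*, and at 42204 to 49848 in *Slc11a2*-KD WT and 36436 to 40053 in *Slc11a2*-KD *APP/PS1*. The sum of 6 endothelial markers did so in Control mice, at 175 to 390 against 105 to 160 CPM. The sum of 7 border macrophage markers separated by genotype in Control mice (219 to 424 CPM in WT, 91.0 to 195 in *APP/PS1*) and in *Slc11a2*-KD mice (255 to 507 and 130 to 192). The part of these sums in the genotype differences below was not tested. *Slc11a2* itself was at 29.6 to 43.3 CPM in Control WT and 26.8 to 37.7 in *Slc11a2*-KD WT, which overlap. In *APP/PS1* mice it was at 39.6 to 47.8 CPM in Control and 37.5 to 74.4 in *Slc11a2*-KD, where 4 of 5 libraries, all but 0004, lay above every Control library. A gene total includes the exons that recombination leaves in place, so this total does not check the knockdown labels. In bulk samples fewer cells of a type and less RNA per cell cannot be told apart.

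Sequence upstream of the genes was read first, because Nrf2 and Bach1 act through a short element. The element's core, TGACNNNGC (N is any base), was searched on both strands in the 1500 bases before each canonical start on GRCm39, along with its stricter form TGACTCAGC, every match of which is also a match of the core. Among 14341 protein-coding genes of the table, 39.6% held the core and 2.13% held the strict form. *Sqstm1* held the strict form 3 times, 117, 478 and 875 bases before its start, and no other of the 8 genes held it. Those windows lie within the annotated span of *Sqstm1*, because longer transcripts begin farther upstream, and they touch no annotated exon. The lines below show the *Sqstm1* matches and the single core matches of *Nfe2l2* (chr2:75535229-75535257, minus strand, 254 bases before its start) and *Mafg* (chr11:120524577-120524605, plus strand, 213 bases before), with the element in capitals and 10 flanking bases on each side.
Sqstm1, chr11:50102992-50103020, minus strand: gaattcctctTGACTCAGCttcccaaggg
Sqstm1, chr11:50103353-50103381, minus strand: cccatgacttTGACTCAGCaggtctagtc
Sqstm1, chr11:50103750-50103778, plus strand: tggccaagcgTGACTCAGCagtctagtgg
Nfe2l2: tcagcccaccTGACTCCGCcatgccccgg
Mafg: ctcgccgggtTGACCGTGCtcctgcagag

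*Nqo1* and *Txnrd1* each held the core 2 times, and *Keap1*, *Bach1* and *Srxn1* held 0 in this window. With a core match before 39.6% of all gene starts, these matches describe the letters only. The *Txnrd1* matches lay 57 and 363 bases before its canonical start (chr10:82694938-82694966 and chr10:82694632-82694660, minus strand), in annotated exons, and are shown because *Txnrd1* has a part in the results below.
Txnrd1, 57 bases before: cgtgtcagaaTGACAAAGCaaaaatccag
Txnrd1, 363 bases before: gcactggctgTGACCCTGCcaaatagttg

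Levels of the genes were compared with each other per kilobase of exon, since a longer transcript yields more reads. In Control WT, *Sqstm1* had the highest level at 32.8 ± 3.16 CPM per kb (SD, n = 6), ahead of *Nfe2l2* at 24.4 ± 1.27, *Bach1* at 20.3 ± 1.75 and *Mafg* at 14.5 ± 0.801. *Keap1* at 6.69 ± 0.786 and *Txnrd1* at 5.16 ± 1.10 followed, and their mean ± SD ranges overlapped. *Srxn1* was at 0.762 ± 0.421 and *Nqo1* was lowest, at 0.302 ± 0.439, a level within its own spread of 0. This order also held in the Control *APP/PS1* and the *Slc11a2*-KD WT groups, whereas in *Slc11a2*-KD *APP/PS1* mice only *Bach1* (12.2 ± 3.05, n = 5) and *Mafg* (14.8 ± 1.05) changed places, by less than the spread of *Bach1*. Dividing by the canonical transcript's length in place of all annotated exons gave the same order in each group.

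**Figure D1:**
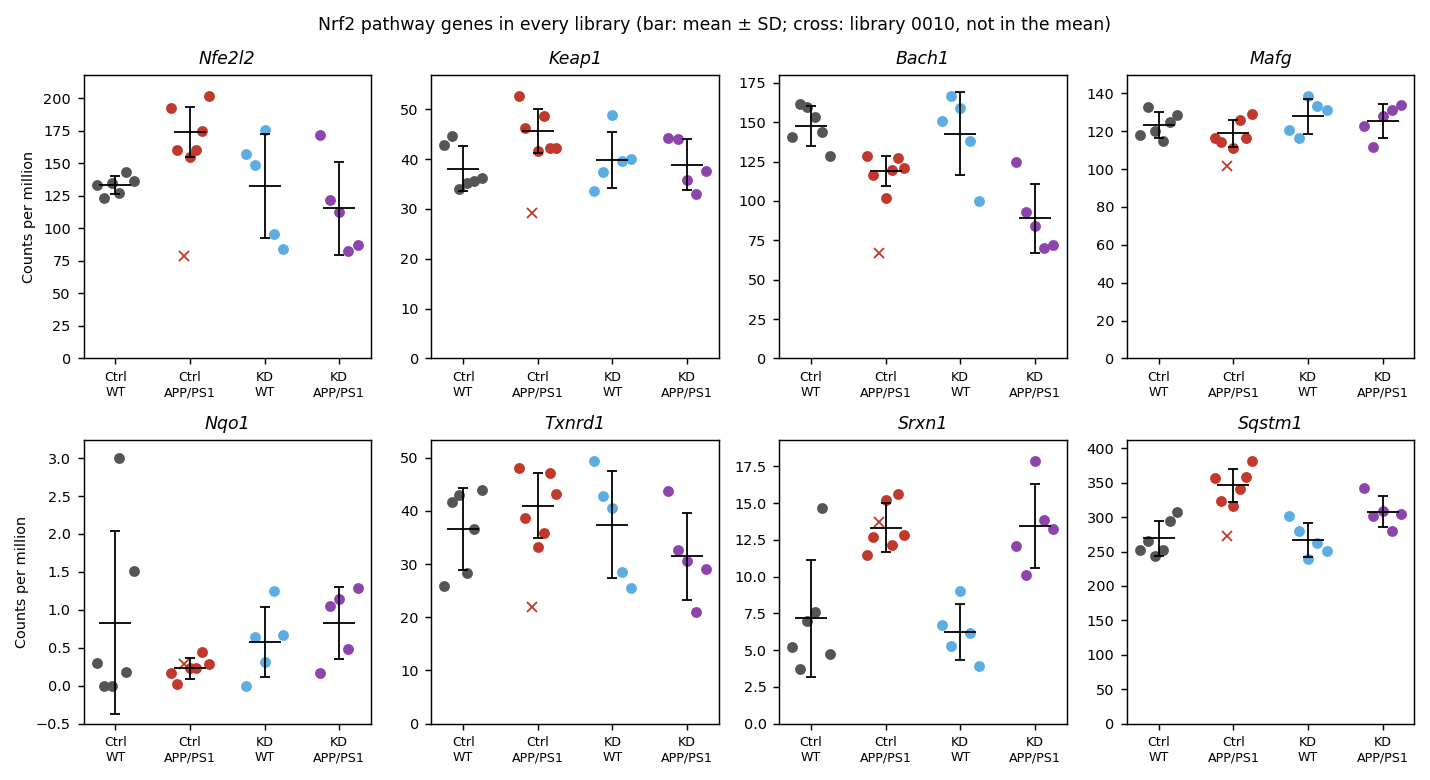
CPM of each gene in every library (points), by group, with the group mean ± SD (black bars), and Control *APP/PS1* 0010 as a cross outside the mean. Group means of *Srxn1* and *Sqstm1* are higher in *APP/PS1* than in WT, and those of *Bach1* lower. The genotypes overlap for *Srxn1* in Control mice, for *Sqstm1* in *Slc11a2*-KD mice and for *Bach1* in both. *Nfe2l2* spreads from 84.1 to 176 CPM within *Slc11a2*-KD WT and from 82.9 to 172 CPM within *Slc11a2*-KD *APP/PS1*.

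Of *Nfe2l2*, *Keap1*, *Bach1* and *Mafg*, none passed the test between *APP/PS1* and WT in Control mice, while *Bach1* fell in *Slc11a2*-KD mice. The difference between its 2 genotype effects did not pass (interaction -0.37, SE 0.20, adjusted p = 0.544). *Nfe2l2* (chr2:75504739-75534985, minus strand, 5 exons) is the activator itself. In Control WT it was measured at 133, 124, 135, 127, 143 and 136 CPM in libraries 0006, 0008, 0009, 0012, 0014 and 0015. In Control *APP/PS1* it was at 193, 160, 155, 160, 175 and 202 CPM in libraries 0005, 0007, 0011, 0013, 0016 and 0017. Each of these 6 Control *APP/PS1* libraries was above every Control WT library, while 0010, left out, was at 78.7 CPM, below them all. The log2 fold change of 0.39 (SE 0.17) did not pass over all genes when the 4 groups shared 1 estimate of spread (adjusted p = 0.154). It passed with only the 2 Control groups in the fit (0.40, adjusted p = 0.00271), with a term for libraries 18 to 23 (0.39, adjusted p = 0.00701) and with those libraries left out (0.38, adjusted p = 0.00254), so the call for *Nfe2l2* rests on how the scatter of the *Slc11a2*-KD libraries enters.

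In the *Slc11a2*-KD groups *Nfe2l2* did not separate by genotype. *Slc11a2*-KD WT libraries 0001, 0002, 0003, 0019 and 0022 held 157, 149, 176, 95.9 and 84.1 CPM. *Slc11a2*-KD *APP/PS1* libraries 0004, 0018, 0020, 0021 and 0023 held 172, 122, 113, 82.9 and 87.5 CPM. In both groups the libraries numbered 1 to 4 were the high ones and those numbered 18 to 23 the low ones. The genotype difference was -0.20 (SE 0.19, adjusted p = 0.512), and it was positive (0.14, adjusted p = 0.535) once a term for libraries 18 to 23 was added.

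*Bach1* (chr16:87495782-87530234, plus strand, 5 exons), the repressor that competes with Nrf2, had a lower mean in Control *APP/PS1* than in Control WT. Control WT libraries, in the order above, gave 141, 162, 160, 153, 144 and 128 CPM. Control *APP/PS1* libraries gave 129, 117, 102, 120, 127 and 121 CPM. The groups overlapped only at their edges, with Control WT 0015 and Control *APP/PS1* 0005 both near 128.5. The log2 fold change was -0.31 (SE 0.13, adjusted p = 0.144) in the shared fit, and it passed the threshold with DESeq2 (-0.35, adjusted p = 0.0487), with at least 10 counts required in every sample (-0.35, adjusted p = 0.0486), with only the Control groups in the fit (-0.30, adjusted p = 0.0187), with the term for libraries 18 to 23 (-0.31, adjusted p = 0.0279), with those libraries left out (-0.32, adjusted p = 0.00879) and with the choroid plexus sum as a covariate (-0.40, adjusted p = 0.0425).

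*Bach1* in the *Slc11a2*-KD groups was at 151, 167, 159, 138 and 99.8 CPM in WT and at 125, 93.1, 84.1, 70.3 and 71.9 CPM in *APP/PS1*. Only *Slc11a2*-KD *APP/PS1* 0004 exceeded the lowest WT library, 0022. The fall was 1.61-fold (log2 -0.68, SE 0.15, adjusted p = 0.00243). It held with a term for libraries 18 to 23, at -0.49 (adjusted p = 0.00569), and in every fit that left out 1 library, between -0.84 and -0.61. It did not pass with only the 2 *Slc11a2*-KD groups in the fit (-0.65, adjusted p = 0.0634), within libraries 18 to 23 alone (-0.58, adjusted p = 0.207) or without those libraries, where 0004 is the single *APP/PS1* sample and is assumed to vary like the others (-0.36, adjusted p = 0.375).

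*Keap1* (chr9:21141026-21150679, minus strand, 6 exons), the adaptor that targets Nrf2 for degradation, ranged from 34.0 to 44.6 CPM in Control WT and from 41.7 to 52.7 CPM in Control *APP/PS1*. These ranges overlapped at their ends, and the log2 fold change of 0.26 (SE 0.11) had an adjusted p of 0.146. In the *Slc11a2*-KD groups it ranged from 33.5 to 48.8 CPM in WT and from 33.0 to 44.3 CPM in *APP/PS1*, a log2 difference of -0.03 (SE 0.12, adjusted p = 0.889). *Mafg* (chr11:120515942-120524530, minus strand, 3 exons), the Maf partner shared by Nrf2 and Bach1, was the steadiest of the 8 between groups. Its group means lay between 119 ± 7.08 (SD, n = 6, Control *APP/PS1*) and 128 ± 9.28 CPM (SD, n = 5, *Slc11a2*-KD WT). Its log2 fold changes between groups were -0.05 and -0.03 for *APP/PS1* and 0.05 and 0.08 for knockdown, with adjusted p-values from 0.652 to 1. *Mafg* shares bases with *Sirt7* and *Sqstm1* with *Mgat4b* and *Mrnip*, and the strand setting of the counting is not given in the sources used here, so some reads of such neighbours may not be separable.

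Of the targets, *Srxn1* and *Sqstm1* rose with *APP/PS1* in Control mice, and these were the 2 of 8 genes called in that comparison, in which 10.5% of all genes tested were called. The median log2 fold change of the 8 was 0.21, beside -0.02 over all genes tested. In *Slc11a2*-KD mice 2 of 8 were also called, *Srxn1* higher and *Bach1* lower, where 16.2% of all genes were called, and the medians were -0.03 and -0.07. With only 8 genes, 2 calls stand near these shares, so the counts are no result about the pathway.

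*Srxn1* (chr2:151947436-151957687, plus strand, 2 exons) encodes sulfiredoxin, which restores peroxiredoxins that have been overoxidised. Control WT libraries held 5.22, 3.75, 6.97, 7.61, 14.7 and 4.73 CPM. Control *APP/PS1* libraries held 11.5, 12.7, 15.2, 12.2, 15.6 and 12.8 CPM. Apart from 0014 at 14.7, no Control WT library reached the lowest *APP/PS1* library. The rise was 1.86-fold (log2 0.89, SE 0.26, adjusted p = 0.0269), and without 0014 it was 1.24 on the log2 scale (adjusted p = 0.000503). The call was lost, with the direction kept, without Control WT 0006, 0008, 0009 or 0015 or Control *APP/PS1* 0011 or 0016 (adjusted p = 0.0504 to 0.0675), without Control WT 0012 and 0015 together (0.80, adjusted p = 0.118) and with the choroid plexus covariate (0.83, adjusted p = 0.0542).

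In *Slc11a2*-KD mice the *Srxn1* ranges did not overlap between genotypes. The share of all genes without such overlap is not given, for this or any other comparison here. Separation of ranges is thus a description only. WT libraries held 6.71, 5.26, 9.02, 6.17 and 3.90 CPM, and *APP/PS1* libraries held 12.1, 10.1, 17.9, 13.9 and 13.3 CPM. The highest WT value was below the lowest *APP/PS1* value. The rise was 2.16-fold (log2 1.11, SE 0.29, adjusted p = 0.00973), it held in every fit that left out 1 library (0.98 to 1.29), and it was 1.22 with the term for libraries 18 to 23 (adjusted p = 0.0173). Within libraries 18 to 23 alone it was 1.45 (adjusted p = 0.0717), and without them 0.78 (adjusted p = 0.59). The rises in Control and in *Slc11a2*-KD mice come from different mice, and their difference was 0.22 (SE 0.38, adjusted p = 0.854, interaction term).

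*Sqstm1* (chr11:50089572-50107684, minus strand, 8 exons) carries the 3 strict elements shown above and encodes the receptor p62. In Control WT it was at 252, 266, 243, 252, 295 and 307 CPM. In Control *APP/PS1* it was at 356, 323, 316, 340, 358 and 382 CPM. These libraries did not overlap between the groups, while 0010, left out, was at 273 CPM, within the range of Control WT. The rise was 1.29-fold (log2 0.36, SE 0.09, adjusted p = 0.00738), and it passed in every fit that left out 1 library (0.33 to 0.40, adjusted p = 0.0047 to 0.0232). In *Slc11a2*-KD mice the values were 301, 280, 238, 262 and 250 CPM in WT and 343, 301, 309, 280 and 304 CPM in *APP/PS1*, which overlap, and the log2 difference of 0.21 (SE 0.10) did not pass (adjusted p = 0.138). The difference between the 2 effects was -0.16 (SE 0.13, adjusted p = 0.631), so a smaller rise under knockdown was not shown.

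*Txnrd1* (chr10:82669785-82733546, plus strand, 14 exons), the cytosolic thioredoxin reductase, did not separate by genotype. It ranged from 25.9 to 44.0 CPM in Control WT and from 33.1 to 48.1 CPM in Control *APP/PS1* (log2 0.16, SE 0.18, adjusted p = 0.665). In *Slc11a2*-KD WT it ranged from 25.6 to 49.4 CPM and in *Slc11a2*-KD *APP/PS1* from 20.98 to 43.8 CPM (-0.25, SE 0.20, adjusted p = 0.428). The spread within each *Slc11a2*-KD group followed the library number, as for *Nfe2l2*.

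*Nqo1* (chr8:108113835-108129934, minus strand, 6 exons) encodes the quinone reductase that is the classical readout of Nrf2 in many tissues, and it was almost absent here. Its counts were 0 in Control WT 0008 and 0009 and in *Slc11a2*-KD WT 0001, which allows up to 0.0964, 0.0894 and 0.0738 CPM (3 counts per library, counting error only). It was highest in Control WT 0012 (129 counts, 3.001 CPM) and 0015 (51 counts, 1.51 CPM), the 2 libraries with the highest choroid plexus sums. The next 5 libraries in *Nqo1*, *Slc11a2*-KD *APP/PS1* 0023 (1.29 CPM), *Slc11a2*-KD WT 0019 (1.24), *Slc11a2*-KD *APP/PS1* 0020 (1.14) and 0018 (1.05) and *Slc11a2*-KD WT 0022 (0.666), were also the next 5 in choroid plexus sum. Every other library was at 0.646 CPM or less. The part of choroid plexus RNA in the *Nqo1* reads was not tested. Its log2 fold change was -1.83 (SE 1.12, adjusted p = 0.345) for *APP/PS1* in Control mice, and without Control WT 0012 and 0015 it was 0.93 (adjusted p = 0.739).

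**Figure D2:**
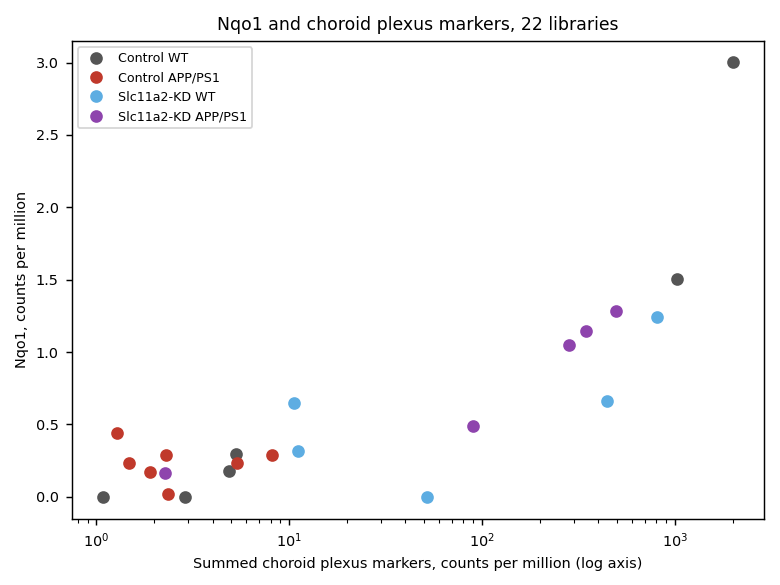
*Nqo1* in CPM (vertical) against the summed level of 12 choroid plexus epithelium markers (horizontal, log axis), 1 point per library, coloured by group. The points are the 22 libraries of the title and also Control *APP/PS1* 0010 (0.288 CPM of *Nqo1*), which is not marked. The points above 1 CPM of *Nqo1* all have marker sums above 280 CPM.

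**Figure D3:**
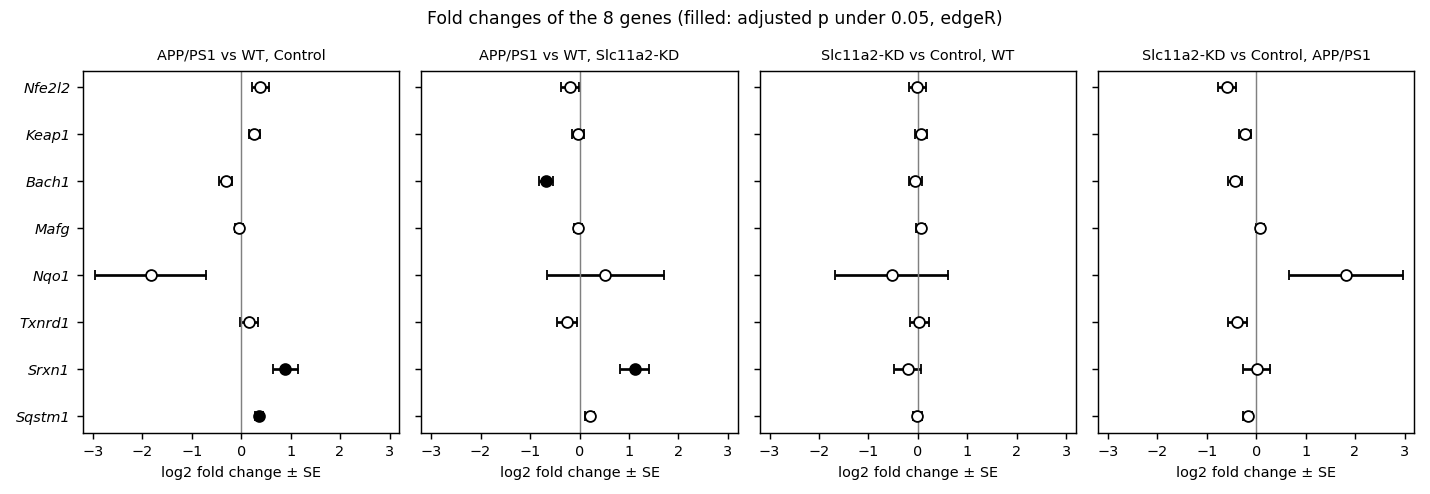
Log2 fold change ± SE of the 8 genes in the 4 comparisons, with filled points where the adjusted p from edgeR was under 0.05. Filled points appear for *Srxn1* and *Sqstm1* with *APP/PS1* in Control mice and for *Srxn1* and *Bach1* with *APP/PS1* in *Slc11a2*-KD mice, and *Nqo1* has the widest bars.

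Knockdown was tested against Control separately in WT and in *APP/PS1* mice. In WT mice the 8 genes gave 0 calls, as did all 18759 genes (0% called, 1110 genes at an unadjusted p under 0.05, of which 0 were among the 8, and 10 genes called by DESeq2). Log2 fold changes of *Nfe2l2*, *Bach1*, *Txnrd1* and *Sqstm1* were -0.01, -0.05, 0.03 and -0.01, with standard errors of 0.18, 0.14, 0.19 and 0.09. *Keap1* gave 0.066 (SE 0.12) and *Nqo1* -0.53 (SE 1.14). The value of *Srxn1* was -0.21 (SE 0.27), and it turned to 0.13 without Control WT 0014.

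In *APP/PS1* mice the knockdown also gave 0 calls among the 8 and over all genes (0% called). Here 3862 genes had an unadjusted p under 0.05, 2 of the 8 among them, and DESeq2 called 580 genes. *Nfe2l2* was at 174 ± 19.4 CPM (SD, n = 6) in Control and 115 ± 35.5 CPM (SD, n = 5) in *Slc11a2*-KD, a log2 fold change of -0.60 (SE 0.18, adjusted p = 0.205). *Bach1* was at 119 ± 9.57 and 88.9 ± 22.2 CPM, a log2 fold change of -0.42 (SE 0.14, adjusted p = 0.205). Both were the pair with an unadjusted p under 0.05, and both were called by DESeq2 (-0.56 and -0.39, adjusted p = 0.0495 for each).

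Among the fits that left out 1 library, these values moved most without *Slc11a2*-KD *APP/PS1* 0004. It is the only one of its group numbered below 18, so its part and that of the run of numbers cannot be told apart. With 0004 left out, *Nfe2l2* fell by 0.78 and *Bach1* by 0.58 on the log2 scale (adjusted p = 0.0202 for each), and 3069 genes were called. With libraries 18 to 23 left out, 0004 alone stood for the group, and the values were -0.04 for *Nfe2l2* and 0.05 for *Bach1* (adjusted p = 1 for each). With a term for libraries 18 to 23 they were 0.01 and -0.04. *Txnrd1* was -0.38 (SE 0.19, adjusted p = 0.255) in the shared fit and 0.13 with that term. *Keap1* was -0.23 (SE 0.12, adjusted p = 0.265), *Sqstm1* -0.17 (SE 0.09, adjusted p = 0.288), *Srxn1* 0.01 (SE 0.27, adjusted p = 0.993) and *Nqo1* 1.82 (SE 1.15, adjusted p = 0.371).

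Whether *APP/PS1* acted differently under knockdown was tested by the interaction term, which called 0 of the 8 and 0 of all genes (0% called, 1703 genes at an unadjusted p under 0.05, 25 called by DESeq2). Among the 8 only *Nfe2l2* had an unadjusted p below the threshold, with an interaction of -0.59 (SE 0.25, adjusted p = 0.544, edgeR). It was -0.25 with the term for libraries 18 to 23. The interaction was -0.30 for *Keap1*, 0.023 for *Mafg*, -0.41 for *Txnrd1* and 2.35 for *Nqo1* (SE 0.17, 0.12, 0.27 and 1.63, adjusted p = 0.546 to 0.965). The knockdown comparisons and the interaction reuse the groups of the genotype comparisons, so their values are not independent of those above.

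**Figure D4:**
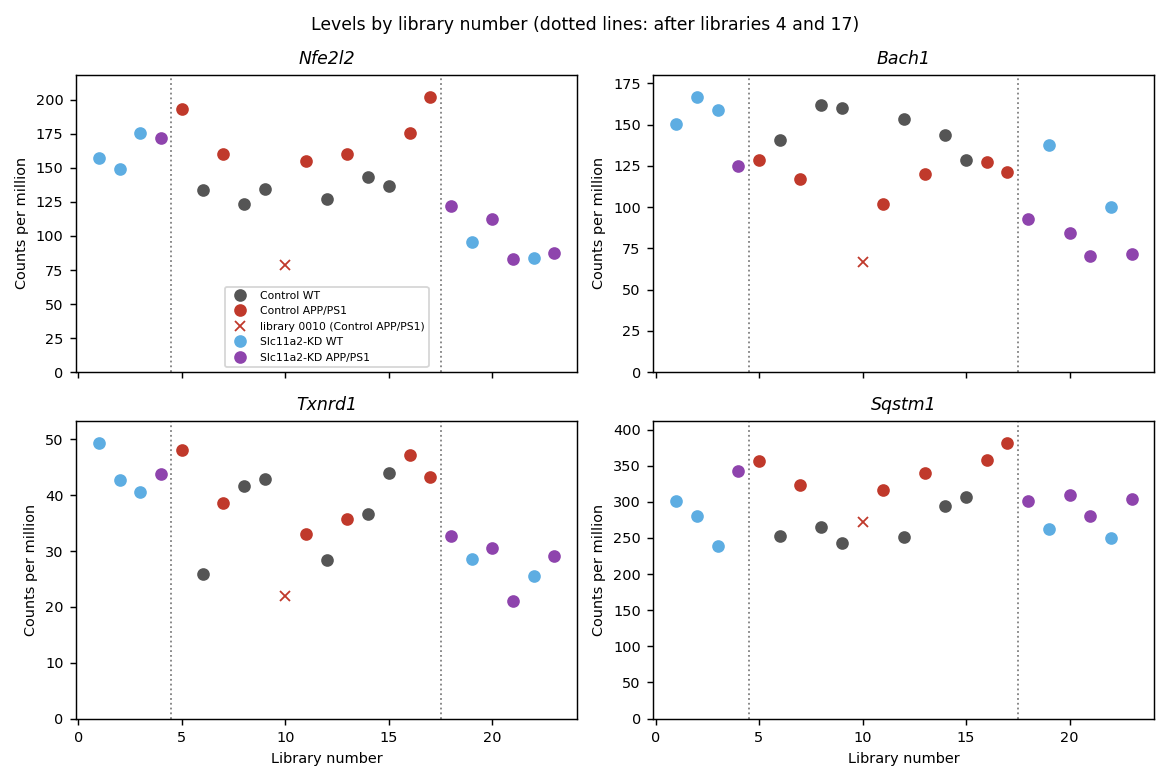
CPM of *Nfe2l2*, *Bach1*, *Txnrd1* and *Sqstm1* against library number, coloured by group, with dotted lines after libraries 4 and 17. *Nfe2l2* and *Txnrd1* in libraries 18 to 23 sit below all 4 of libraries 1 to 4, while *Sqstm1* overlaps.

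Because 10 *Slc11a2*-KD libraries came with numbers 1 to 4 or 18 to 23, these were compared directly, with genotype in the model. The labels do not record the number as a batch. In libraries 18 to 23, *Nfe2l2*, *Txnrd1* and *Bach1* fell, 3 of 8 genes, where 18.8% of the 17060 genes tested were called. *Nfe2l2* was at 149 to 176 CPM in libraries 1 to 4 and at 82.9 to 122 CPM in libraries 18 to 23, with no overlap (log2 -0.79, SE 0.14, adjusted p = 0.00889). *Txnrd1* was at 40.6 to 49.4 and 20.98 to 32.7 CPM, again with no overlap (-0.66, SE 0.16, adjusted p = 0.0157). *Bach1* was at 125 to 167 and 70.3 to 138 CPM (-0.49, SE 0.14, adjusted p = 0.0287). The other 5 did not pass, with *Keap1* at -0.08, *Mafg* at 0.08, *Sqstm1* at -0.12, *Srxn1* at -0.20 and *Nqo1* at 1.95 (adjusted p = 0.275 to 0.78).

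The 3 falls lost their calls without *Slc11a2*-KD WT 0022, at -0.75 for *Nfe2l2*, -0.63 for *Txnrd1* and -0.43 for *Bach1* (adjusted p = 0.0587, 0.0792 and 0.113). They also did without *Slc11a2*-KD *APP/PS1* 0004, at -0.79, -0.67 and -0.38 (adjusted p = 0.0589, 0.106 and 0.255). *Bach1* lost its call without *Slc11a2*-KD WT 0002 (-0.49, adjusted p = 0.0611) or 0003 (-0.51, adjusted p = 0.0539) as well. With the choroid plexus sum as a covariate, which nearly coincides with the run of numbers, the 3 calls were lost too, while the values moved away from 0, to -1.25 for *Nfe2l2*, -1.53 for *Txnrd1* and -0.97 for *Bach1* (SE 0.38, 0.36 and 0.38, adjusted p = 0.161, 0.157 and 0.196). Other measures moved with the same libraries. Summed early response genes of tissue handling, such as *Fos* and *Jun*, were at 3921 to 6476 CPM in libraries 18 to 23 and at 6720 to 9198 CPM in libraries 1 to 4. Over all genes with a mean of at least 100 counts, split into 4 equal bins by exon length, the bin of shortest genes (67 to 4110 bases) had a median log2 difference of 0.45 and the bin of longest genes (9391 to 123193 bases) one of -0.50. *Nfe2l2* has 5461 bases of exon, and its bin had a median of 0.06. *Txnrd1* (7086 bases) and *Bach1* (7275) lie in a bin with a median of -0.18. Of the genes that did not pass, *Keap1* (5690) lies in the bin of *Nfe2l2*, *Mafg* (8508) and *Sqstm1* (8203) in that of *Bach1*, and *Srxn1* (9391) in the bin of longest genes. For knockdown in *APP/PS1* mice the bins, from shortest to longest, had medians of 0.29, 0.01, -0.14 and -0.32. The part of these measures in the 3 falls, and in the knockdown values of *APP/PS1* mice above, was not tested.

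*Nfe2l2*, *Bach1* and *Txnrd1* also varied together across libraries once group means were taken out. Pearson's r of log2 CPM over 22 libraries was 0.83 for *Nfe2l2* and *Bach1*, 0.78 for *Nfe2l2* and *Txnrd1* and 0.71 for *Bach1* and *Txnrd1*. Within the 12 Control libraries these were 0.22, 0.44 and 0.37, and within the 10 *Slc11a2*-KD libraries 0.92, 0.93 and 0.86. These are descriptions, and the libraries share the run of numbers described above. With *Nfe2l2*, r was 0.24 for *Srxn1* and 0.47 for *Sqstm1* over the 22 libraries, and 0.21 and 0.67 within the Control libraries.

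The genes most like each member, by the same measure among 11887 other genes with a mean of at least 1 CPM, were *Pik3r1* (0.95) and *Icosl* (0.95) for *Nfe2l2* and *Vav1* (0.95) and *Zhx1* (0.94) for *Bach1*. *Txnrd1* was most like *Hnrnph2* (0.90) and *Sbno2* (0.89), *Keap1* most like *Atg13* (0.82) and *Atxn1l* (0.81), and *Sqstm1* most like *Itpkc* (0.82) and *Plekho2* (0.81). The values were lower for *Mafg*, with *Cdk20* (0.69) and *Rnf167* (0.68), and for *Srxn1*, with *Scly* (0.68) and *Gm6682* (0.67). *Nqo1* was most like *Slc6a20a* (0.85) and *Slc2a12* (0.84), both transporters. Each r is over 22 libraries. Over the 12 Control libraries alone r was 0.68 for *Nfe2l2* with *Pik3r1* and 0.83 with *Icosl*, 0.89 for *Bach1* with *Vav1* and 0.70 with *Zhx1*, 0.86 for *Mafg* with *Cdk20* and 0.82 for *Srxn1* with *Scly*.

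The other genes of the pathway were read from fixed lists. Among 32 other Nrf2 targets tested (*Gsta3* and *Gpx2* are not in the table used), 7 rose and 2 fell with *APP/PS1* in Control mice, and 10 rose and 3 fell in *Slc11a2*-KD mice, beside 10.5% and 16.2% of all genes called. The 13 calls in *Slc11a2*-KD mice became 7 with only the groups compared in the fit, 3 without libraries 18 to 23 and 2 within them. The list's median log2 fold change was near 0 in both, at 0.01 and 0.05, beside -0.02 and -0.07 over all genes. The called targets were therefore a subset, and they did not move one way.

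*Hmox1*, heme oxygenase, which Bach1 represses, rose in both. Control WT held 51.4 ± 6.08 CPM and Control *APP/PS1* 79.5 ± 5.23 CPM (SD, n = 6 each; log2 0.63, adjusted p = 4.09e-05). In *Slc11a2*-KD mice it was at 58.2 ± 4.17 and 79.5 ± 5.76 CPM (SD, n = 5 each; 0.45, adjusted p = 0.00366). Every *APP/PS1* library kept, at 69.8 CPM or above, exceeded every WT library, none of which was above 64.1 CPM. The call in *Slc11a2*-KD mice was lost without libraries 18 to 23 (0.23, adjusted p = 0.661) and within them alone (0.52, adjusted p = 0.194).

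*Gclc* and *Gclm* encode the subunits of glutamate-cysteine ligase, the first step of glutathione synthesis, and *Slc7a11* the cystine importer that feeds it. *Gclc* fell with *APP/PS1*, from 64.1 ± 9.89 to 42.6 ± 4.08 CPM in Control mice (-0.59, adjusted p = 0.00848) and from 63.2 ± 11.1 to 38.5 ± 9.58 CPM in *Slc11a2*-KD mice (-0.71, adjusted p = 0.0034). *Gclm* gave -0.08 (adjusted p = 0.757) and -0.27 (adjusted p = 0.125), and *Slc7a11* 0.10 (adjusted p = 0.911) and 0.02 (adjusted p = 0.984). *Gclm* in *Slc11a2*-KD mice passed only when *Slc11a2*-KD WT 0019 was left out (-0.36, adjusted p = 0.0343). In the main fit only *Gclc* passed the test. Its call in *Slc11a2*-KD mice was lost with only the groups compared in the fit (-0.68, adjusted p = 0.0559), without libraries 18 to 23 (-0.45, adjusted p = 0.402) and within them alone (-0.59, adjusted p = 0.271).

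The largest changes among the other called targets were in iron storage, detoxification and lipid uptake. The ferritin genes *Ftl1* (1.01 in Control and 1.11 in *Slc11a2*-KD mice, adjusted p = 1.48e-07 and 2.59e-07) and *Fth1* (0.79 and 0.73, adjusted p = 0.00203 and 0.0071) rose in both, though near-identical ferritin pseudogenes may share their reads. *Ephx1*, an epoxide hydrolase, rose by 1.08 and 1.30 (adjusted p = 0.000366 and 0.000158). *Cd36*, a scavenger receptor that takes up lipids, fell in both (-1.54 and -1.76, adjusted p = 2.44e-05 and 2.06e-05). The border macrophage marker sum given above was also lower in *APP/PS1*, and its part in the fall of *Cd36* was not tested.

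**Figure D5:**
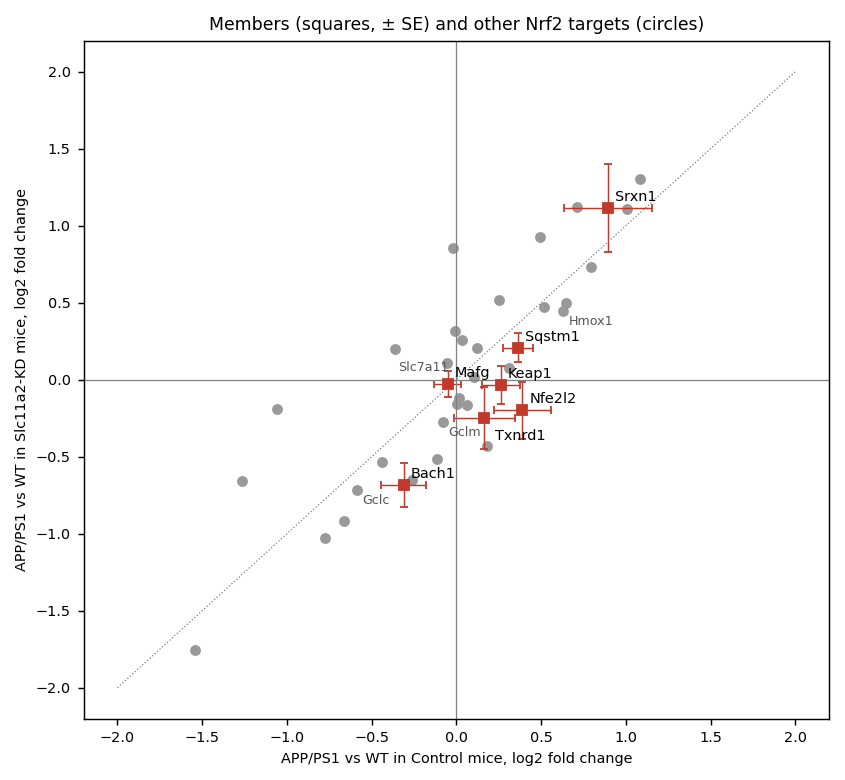
Log2 fold change of *APP/PS1* against WT in Control mice (horizontal) and in *Slc11a2*-KD mice (vertical), which share no samples, for 7 of the 8 genes (red squares, ± SE, *Nqo1* left out for its few counts) and other Nrf2 targets with a mean of at least 1 CPM (grey circles). *Srxn1* lies at 0.89 and 1.11, *Bach1* at -0.31 and -0.68, and the dotted line marks equal values.

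Of 17 listed thioredoxin, peroxiredoxin, sestrin and related genes, 3 rose and 2 fell in Control mice, and 10 rose and 2 fell in *Slc11a2*-KD mice. The medians were 0.15 and 0.59, and 10.5% and 16.2% of all genes were called in either direction. *Txn1* and *Prdx1* are also in the list of other Nrf2 targets above. The 5 calls in Control mice became 3 without Control *APP/PS1* 0007 or 0013 or without Control WT 0012 and 0015 together, and 8 with only the groups compared in the fit. The 12 calls in *Slc11a2*-KD mice became 7 without *Slc11a2*-KD WT 0002, 6 with the term for libraries 18 to 23, 4 with only the groups compared, 1 without those libraries and 0 within them. *Prdx1* (0.71 and 1.12, adjusted p = 0.0169 and 0.000856) and *Prdx6* (0.79 and 1.02, adjusted p = 0.00248 and 0.000518), peroxidases of which the first is a substrate of sulfiredoxin, rose in both. *Txnip*, which binds and inhibits thioredoxin, fell in both (-0.88 and -0.94, adjusted p = 0.0192 and 0.0169), and so did *Sesn1* (-0.65 and -0.53, adjusted p = 0.00257 and 0.0176). *Txn1* rose in *Slc11a2*-KD mice (0.92, adjusted p = 0.00454) and gave 0.49 in Control mice (adjusted p = 0.11). Of these 17 genes, 11 were also called higher, and 0 lower, in libraries 18 to 23 than in 1 to 4, where 18.8% of all genes were called in either direction. That 11 became 0 without *Slc11a2*-KD WT 0022, without *Slc11a2*-KD *APP/PS1* 0004 and with the choroid plexus covariate.

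Among 15 genes listed as selective autophagy receptors and partners of *Sqstm1*, 3 rose and 1 fell in Control mice. In *Slc11a2*-KD mice 5 rose and 2 fell (10.5% and 16.2% of all genes called). The list's median log2 fold changes were 0.11 and -0.02, beside -0.02 and -0.07 over all genes. The 4 Control calls became 1 without Control *APP/PS1* 0011 or without Control WT 0012 and 0015 together, 2 without Control WT 0006, 0009, 0012 or 0015 or Control *APP/PS1* 0007 or 0017, and 7 with the term for libraries 18 to 23. The 7 calls in *Slc11a2*-KD mice became 12 without *Slc11a2*-KD *APP/PS1* 0004, 11 without *Slc11a2*-KD WT 0022, 3 with only the groups compared, and 0 without libraries 18 to 23 or within them. Of 5 listed members of the LC3 family, which p62 binds, 3 rose in Control mice, *Map1lc3a* by 0.63 (adjusted p = 0.00926), *Gabarap* by 0.57 (adjusted p = 0.0208) and *Gabarapl1* by 0.44 (adjusted p = 0.0307), while *Map1lc3b* (0.25, adjusted p = 0.156) and *Gabarapl2* (0.10, adjusted p = 0.831) did not pass. In *Slc11a2*-KD mice these 3 gave 0.93, 0.87 and 0.73 (adjusted p = 0.000767, 0.00152 and 0.00138). *Tfeb*, a transcription factor of lysosomal genes, fell in Control mice (-0.34, adjusted p = 0.0417). *Optn*, another receptor, rose in *Slc11a2*-KD mice (2.46, adjusted p = 0.0144) from a low level of 0.402 ± 0.364 CPM to 2.23 ± 1.20 CPM (SD, n = 5 each).

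Among 23 other regulators of Nrf2 (*Nfe2l3* is not in the table used), 2 rose and 0 fell in Control mice, and 3 rose and 2 fell in *Slc11a2*-KD mice, beside 10.5% and 16.2% of all genes called. The list's median log2 fold changes were 0.02 and -0.23, beside -0.02 and -0.07 over all genes, and 12 and 6 of the 23 were above 0. The 2 Control calls became 1 without Control WT 0012 or Control *APP/PS1* 0005, 0007 or 0013 and with Control *APP/PS1* 0010 kept, 0 without Control WT 0012 and 0015 together, 4 without libraries 18 to 23, and 5 with DESeq2 or with at least 10 counts required in every sample. The 5 calls in *Slc11a2*-KD mice became 1 without 0001, 0003, 0021 or 0023, 2 without 0002, 0018 or 0020, 8 without 0022 and 11 without 0004. They became 0 without libraries 18 to 23 and within them alone, 1 with only the groups compared in the fit and with Control *APP/PS1* 0010 kept, and 2 with the term for those libraries. *Fyn*, a kinase linked to nuclear export of Nrf2, rose in both (0.79 and 0.98, adjusted p = 0.0234 and 0.00867), as did *Ikbkb*, a kinase that Keap1 can bind (0.57 and 0.47, adjusted p = 0.00993 and 0.045). *Bach2*, a relative of *Bach1*, fell in *Slc11a2*-KD mice (-1.10, adjusted p = 0.0478), and *Rbx1*, a subunit of the ligase that Keap1 serves, rose (0.65, adjusted p = 0.0272). For knockdown in either genotype and for the interaction, edgeR called 0 genes in each of the 4 lists, as in the whole table. For knockdown in *APP/PS1* mice DESeq2 called 1 regulator, 2 targets, 3 thioredoxin system genes and 3 autophagy genes, and edgeR without *Slc11a2*-KD *APP/PS1* 0004 called 8, 7, 9 and 12. In libraries 18 to 23 against 1 to 4, where 18.8% of all genes were called, the regulators gave 1 higher and 5 lower, the targets 9 and 0, and the autophagy genes 5 and 5. These calls fell to 0, 0 and 0 without *Slc11a2*-KD WT 0022 and with the choroid plexus covariate, and to 1, 1 and 0 without 0004. The targets also fell to 5 without *Slc11a2*-KD WT 0002, and the autophagy genes to 5 without *Slc11a2*-KD WT 0003.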

How the data were processed

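RNA of CD11b+ hippocampal cells of female mice was sequenced in 23 samples, 1 library each, grouped by their labels. Per the submitters' processing notes and the study's methods, the authors trimmed reads with Trim Galore 0.6.7, aligned them with STAR to mm39 and counted reads per gene with STAR. The authors deposited a table of counts, not normalized, and a second table whose values are a signal, the counts divided by 1 size factor per sample made by DESeq2 1.36.0. The second table served only to check that the ratio of both is constant within a sample (spread 1e-14).

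Genes reaching 5 counts in 3 or more samples were scaled by TMM and tested by edgeR 4.0.16 (quasi-likelihood, R 4.3.3), with the 4 groups in 1 fit over 22 samples and no covariate. The comparison of libraries 18 to 23 with 1 to 4 used the 10 *Slc11a2*-KD samples with genotype as a term. P-values were two-sided and Benjamini-Hochberg adjusted over all genes tested, with a threshold of 0.05. CPM are TMM-scaled, and log2 CPM used a prior count of 2. The SE is the log2 fold change divided by the square root of F. P-values measure the spread between these samples. Control *APP/PS1* 0010 was identified as the excluded sample from the study's heat map. Gene positions, exon lengths and sequences were read from the GENCODE M39 annotation and the GRCm39 genome, where 18731 of 18876 identifiers matched. The steps were tested on simulated counts.

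The 8 genes and the gene lists were chosen with earlier results of these data known. All 8 are named in every comparison. Of each list, up to 4 genes with the largest absolute log2 fold change among those called with a mean of at least 1 CPM are named per comparison, with *Hmox1*, *Gclc*, *Gclm* and *Slc7a11* in any case, and 2 most similar genes per member. Marker lists of microglia, choroid plexus epithelium, border macrophages, astrocytes, neurons, oligodendrocytes, endothelium, lymphocytes and neutrophils, and early response genes, were summed per library.

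Alternatives were DESeq2 1.42.0, its size factors in edgeR, no filter, at least 10 counts in every sample, 0010 kept, only the groups compared in the fit, libraries 18 to 23 as a term, left out or alone, a choroid plexus covariate, Control WT 0012 and 0015 left out, and each library left out in turn.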

Additional observations from a re-analysis of the deposited data

Results flagged for a closer look

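One value of the 8 genes stood apart from its group. *Srxn1* in Control WT 0014 was at 14.67 CPM, and its gap to the next highest library was 0.647 of the group's whole range. This was 1 of 32 group-wise checks of the 8 genes, and chance flags about 1 in 20. *Srxn1* of that library lay within the range of the *APP/PS1* groups.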

How the results depend on the processing

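Of 445 log2 fold changes recomputed under other settings, 389 kept their direction and side of the threshold, and of 564 recomputed with 1 library left out, 517 did. The number of the 8 genes called for *APP/PS1* in Control mice was 4 in place of 2 with only the groups compared in the fit, with a term for libraries 18 to 23 and with those libraries left out, and 1 without Control WT 0012 and 0015. For *APP/PS1* in *Slc11a2*-KD mice it was 1 with only the groups compared, and 0 with libraries 18 to 23 left out or alone. For knockdown in *APP/PS1* mice it was 2 with DESeq2. For libraries 18 to 23 against 1 to 4 it was 0 with the choroid plexus covariate. Leaving out 1 library gave 1 to 2, 2 to 2, 0 to 0 (knockdown in WT), 0 to 2 (2 without *Slc11a2*-KD *APP/PS1* 0004), 0 to 0 (interaction) and 0 to 3 calls (0 without *Slc11a2*-KD WT 0022 or *Slc11a2*-KD *APP/PS1* 0004).

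Signs that turned were of values that did not pass. With the term for libraries 18 to 23, *APP/PS1* in *Slc11a2*-KD mice gave *Nfe2l2* 0.14, *Keap1* 0.0016, *Nqo1* -0.27 and *Txnrd1* 0.037, knockdown in WT gave *Nfe2l2* 0.26, *Bach1* 0.14 and *Sqstm1* 0.039, and knockdown in *APP/PS1* gave *Nfe2l2* 0.013 and *Txnrd1* 0.13. With those libraries left out the values were *Nfe2l2* 0.082, *Keap1* 0.14 and *Nqo1* -0.94, then *Nfe2l2* 0.26, *Bach1* 0.092 and *Sqstm1* 0.011, then *Bach1* 0.050, *Nqo1* -0.48, *Txnrd1* 0.078 and *Srxn1* -0.16. Within libraries 18 to 23 alone, *Nfe2l2* was 0.16 and *Txnrd1* 0.062. With the choroid plexus covariate *Nqo1* was 0.53 and *Slc7a11* -0.044 (Control mice), *Nqo1* -0.15 (*Slc11a2*-KD mice), 0.54 (knockdown in WT) and -0.15 (knockdown in *APP/PS1*). Without Control WT 0012 and 0015, *Nqo1* was 0.93 for *APP/PS1* and 2.23 for knockdown in WT, and *Sqstm1* 0.014 for the latter. With only the groups compared, *Srxn1* was -0.0058 for knockdown in *APP/PS1*. The causes were not tested.

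With 1 library left out, ranges that crossed 0 were, for *APP/PS1* in Control mice, *Slc7a11* -0.11 to 0.46, for *APP/PS1* in *Slc11a2*-KD mice *Keap1* -0.091 to 0.048, *Mafg* -0.061 to 0.011 and *Slc7a11* -0.14 to 0.17, for knockdown in WT *Nfe2l2* -0.13 to 0.10, *Keap1* -0.016 to 0.12, *Bach1* -0.11 to 0.040, *Nqo1* -1.05 to 0.54, *Txnrd1* -0.090 to 0.13, *Srxn1* -0.38 to 0.13 and *Sqstm1* -0.062 to 0.027, for knockdown in *APP/PS1* *Srxn1* -0.12 to 0.062, and for libraries 18 to 23 *Keap1* -0.15 to 0.039 and *Srxn1* -0.43 to 0.012.

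Over all genes, 1965 were called for *APP/PS1* in Control mice, against 3241 with only the groups compared, 3155 without libraries 18 to 23 and 1282 without Control WT 0012 and 0015. In *Slc11a2*-KD mice 3034 were called, against 1041, 335 without libraries 18 to 23, 1773 with their term, 327 within them and 1977 to 4781 with 1 library left out. For libraries 18 to 23 against 1 to 4 it was 3214, against 2 with the choroid plexus covariate and 120 to 3987 with 1 library left out. Without libraries 18 to 23, knockdown gave 2 genes in WT and 1 in *APP/PS1*. Low counts limit *Nqo1*, at 129 counts or fewer, and with at least 10 counts required in every sample it was not tested.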

Other observations

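Control *APP/PS1* 0010, which entered none of the main fits, differed from the 6 other Control *APP/PS1* libraries in several of the 8 genes (scaled with all 23 libraries). *Nfe2l2* was at 78.7 CPM, *Bach1* at 67.0, *Txnrd1* at 22.0, *Keap1* at 29.1, *Mafg* at 102 and *Sqstm1* at 273, each below the lowest of the other 6. *Srxn1* (13.7) and *Nqo1* (0.288) lay within their range. With 0010 kept, the rise of *Srxn1* with *APP/PS1* in Control mice was 0.90 (adjusted p = 0.0189) and that of *Sqstm1* was 0.32 (adjusted p = 0.0254), while *Nfe2l2* gave 0.27 (adjusted p = 0.428).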
